A study of Mus musculus with 18 samples.

Results

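The 10 genes described here code for proteins with which cells recognise and take up dying cells, debris and synapses: the receptors Mertk, Axl, Tyro3, Megf10 and Lrp1, the bridging molecules Gas6, Pros1 and Mfge8, the adaptor Gulp1 and the lipid transporter Abca1. They were chosen by name, not by their values, as genes of engulfment by astrocytes. All 10 were found by Entrez identifier in the deposited table of 26301 genes, and 10 of 10 were among the 16539 genes that passed the expression filter. The series asks which astrocyte transcripts contact with neurons regulates. RNA came from astrocytes of newborn (P0) mouse cortex, kept in culture for about 2 weeks and then moved to N2 medium. Astrocytes alone received no treatment, and the co-cultures received P0 hippocampal neurons from mice that carry the red fluorescent protein TdTomato. Both kinds of culture were collected after 2, 4 or 7 days and sorted for cells without TdTomato, with 3 libraries in each of the 6 groups. The labels give all libraries of one replicate number a common date, and a co-culture library is paired below with the library alone of its number and day. The sources used here give no strain, sex or number of animals. Nothing says that replicates are separate animals, and p-values therefore set differences against the spread among these cultures, not among animals. As a model the cells are newborn astrocytes in a dish, and an astrocyte that carried red fluorescence from neurons would fall outside the gate.

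Dying cells expose the lipid phosphatidylserine on their outer surface. Gas6 and protein S (Pros1) bind this lipid with one end and the receptor tyrosine kinases Tyro3, Axl and Mertk, together called the TAM receptors, with the other. Gas6 binds all members of the TAM family and binds Axl most tightly, while protein S acts through Tyro3 and Mertk. Mfge8 bridges the same lipid to integrins of the alpha v family. Megf10 is a receptor that binds the complement component C1q, and it works in a conserved pathway with the adaptor Gulp1 and the transporter Abca1, the mammalian relatives of the nematode genes ced-1, ced-6 and ced-7. Lrp1 is a large endocytic receptor that takes up apolipoprotein E, proteases bound to their inhibitors and, with calreticulin, dying cells. Astrocytes in the developing brain use Mertk and Megf10 to remove synapses.

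Total counts ran from 13950111 to 32623556 reads in 16 libraries. Replicate 1 of astrocytes alone at day 2 had 3242459 reads, of which 92.5% fell on 1 gene (Entrez 19791), and only 0 to 123 reads on any of the 10 genes. The day 7 co-culture of replicate 1 had 8966485 reads, and 40.5% of them fell on the mitochondrial ribosomal RNA gene mt-Rnr2. Both stand apart from the rest. Counts over pairs of libraries are given with and without them, and so are fitted values that moved when they were left out. Levels are given as CPM, the read count scaled to the size of the library with TMM factors, so that 3 reads amounted to 20.2 CPM in the first of these libraries, 0.504 CPM in the second and 0.0743 to 0.179 CPM in the other 16. Of 10 astrocyte markers, 10 had reads in the 16 libraries, with a summed level of 914 to 5618 CPM, although S100b was at 0 in some of them. Summed microglia and macrophage markers ran from 5.21 to 395 CPM over 13 genes, and neuron markers from 157 to 436 CPM over 9 genes. Most of the latter was Stmn2 and Map2, and Snap25, Nefl and Rbfox3 had a median of 0 CPM. In such bulk samples, fewer cells of a type and less RNA per cell cannot be told apart.

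The promoters of Axl, Tyro3 and Gas6 are shown because the levels of these receptors and their ligand correlated across libraries, and that of Abca1 because it had the highest length-scaled level. They are the 250 bases before the start of each gene in RefSeq, on the build GRCm38.p6, written 5′ to 3′ on the strand of the gene. Axl lies at chr7:25788734-25788983 (minus strand), Tyro3 at chr2:119799264-119799513 (plus strand), Gas6 at chr8:13494536-13494785 (minus strand) and Abca1 at chr4:53159896-53160145 (minus strand). Capitals mark 3 motifs, searched on both strands, whose matches do not overlap in the windows shown. The GC box, to which the Sp1 family of factors is known to bind, was searched as GGGCGG. For the E-box, the site of a large family of helix-loop-helix factors, the letters searched were CACGTG. The TATA box, which helps to place the start of transcription at some genes, was searched as TATAAA.
Axl: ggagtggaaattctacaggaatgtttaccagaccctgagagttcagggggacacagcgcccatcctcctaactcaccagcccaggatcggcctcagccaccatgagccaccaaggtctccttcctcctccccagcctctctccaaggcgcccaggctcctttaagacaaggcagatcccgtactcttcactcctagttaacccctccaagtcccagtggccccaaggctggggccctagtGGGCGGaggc
Tyro3: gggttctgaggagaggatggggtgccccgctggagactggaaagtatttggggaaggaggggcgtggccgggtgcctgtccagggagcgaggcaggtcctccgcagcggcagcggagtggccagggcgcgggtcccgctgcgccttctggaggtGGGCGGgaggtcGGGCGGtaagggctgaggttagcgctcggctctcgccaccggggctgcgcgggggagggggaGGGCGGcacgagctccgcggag
Gas6: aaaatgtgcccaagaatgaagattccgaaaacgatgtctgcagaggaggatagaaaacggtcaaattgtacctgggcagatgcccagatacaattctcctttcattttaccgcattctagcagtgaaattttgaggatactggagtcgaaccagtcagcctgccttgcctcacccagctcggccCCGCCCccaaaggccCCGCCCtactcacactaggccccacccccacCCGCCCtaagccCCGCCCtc
Abca1: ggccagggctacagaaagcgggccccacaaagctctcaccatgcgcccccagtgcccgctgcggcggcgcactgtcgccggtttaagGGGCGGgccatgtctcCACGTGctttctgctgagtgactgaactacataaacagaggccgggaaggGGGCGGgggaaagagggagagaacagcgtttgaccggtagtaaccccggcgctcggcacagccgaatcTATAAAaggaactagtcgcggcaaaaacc
A promoter was matched for 9 of the 10 genes, all except Megf10. The GC box was found in 9 of 9, with 4 matches in Gas6, 3 in Tyro3 and 1 in Axl, and in 32.7% of all 32851 promoter windows of that length. The E-box and the TATA box were each found in 1 of 9, which was Abca1 in both cases, and in 6.02% and 12.4% of all windows. These matches say which letters stand in a window and nothing on whether a factor was bound.

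Abca1 and Gas6 had the highest levels per length of transcript, and Mertk had the lowest. In CPM per kb of exon over the 16 libraries, Abca1 averaged 176.9 ± 44.5 (SD, n = 16) and Gas6 176.7 ± 120 (SD, n = 16). These 2 genes could not be ordered, since Abca1 was above Gas6 in 10 of 16 libraries. Lrp1 followed at 88.7 ± 22.9, Axl at 36.6 ± 13.1 and Pros1 at 23.8 ± 5.56 CPM per kb. Mfge8 (13.7 ± 6.61) and Megf10 (13.2 ± 4.72) were level within their spread, with Mfge8 higher in 9 of 16 libraries. Gulp1 averaged 8.30 ± 2.64, Tyro3 2.21 ± 0.850 and Mertk 1.05 ± 0.405 CPM per kb. Of the other neighbours in this order, the higher gene was above the next in 12 to 16 of 16 libraries. Among the TAM receptors the order was therefore Axl, Tyro3, Mertk, and of their ligands Gas6 was above Pros1. The genes also differed in how much they varied. From the lowest to the highest of the 16 libraries, Lrp1 spanned 2.19-fold, Abca1 2.40-fold and Pros1 2.54-fold, while Mfge8 spanned 5.39-fold, Gas6 6.43-fold and Mertk 22.04-fold.

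**Figure D1:**
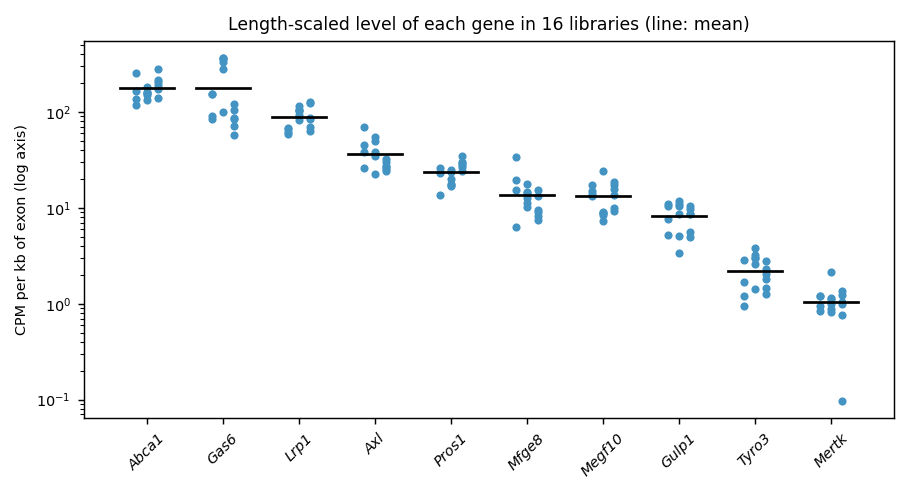
Level of each gene as CPM per kb of exon (log axis), with 1 point for each of 16 libraries and a line at the mean. Abca1 and Gas6 share the highest mean, at 176.9 and 176.7, and Mertk has the lowest, at 1.05, with 1 library far below the others.

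None of the 10 genes passed the test for a difference between co-cultured astrocytes and astrocytes alone, at day 2, 4 or 7 or in the average of the days. In edgeR's quasi-likelihood F test, adjusted over all genes by Benjamini-Hochberg, 0 of 10 were called in each comparison and 0% of the 16539 genes tested. At an unadjusted p under 0.05 there were 0 of 10 as well, against 2.35% of all genes at day 2, 0.369% at day 4, 9.37% at day 7 and 4.17% in the average. DESeq2 called 0 of 10 too, against 0.0782%, 0%, 0.0598% and 0% of genes. With 16 libraries and the replicate number as a block, 0 of 10 were called, against 0.0936% of 17092 genes at day 2, 0% at day 4, 0.105% at day 7 and 0% in the average. In that model 0, 0, 2 and 1 of the 10 genes had an unadjusted p under 0.05, against 2.84%, 1.26%, 2.5% and 3.98% of genes. The median log2 fold change of the 10 genes was 0.30 at day 2, 0.25 at day 4, 0.18 at day 7 and 0.21 in the average, beside 0.04, −0.01, 0.00 and 0.03 over all genes tested. Fitted values were above 0 for 8 of 10 genes in the average of the days with 18 libraries and for 6 of 10 with 16 libraries and the block. Microglia and macrophage markers, none of which was called, had mostly positive fitted values in the average and at day 7, but not in both models at day 4. With 18 libraries they were above 0 for 10 of 12 markers in the average of the days, with a median log2 fold change of 0.99, and for 12 of 12 at day 7, with a median of 2.24. The model with the block and 16 libraries gave 9 of 13 (median 0.65) and 12 of 13 (median 1.15). At day 4 the 2 models gave 7 of 12 markers (median 0.14) and 6 of 13 (median −0.17). Of the 10 genes described here, 9 and 8 were above 0 at that day. The summed level of the microglia and macrophage markers was higher with neurons in 6 of 9 pairs, and in 5 of 7 without the doubtful libraries. Neuron markers, also uncalled, were above 0 for 5 of 6 with 18 libraries, both in the average (median 0.64) and at day 7 (median 1.02). The other model gave 5 of 8 (median 0.60) and 7 of 8 (median 3.20), and their sum was higher in 6 of 9 pairs and in 4 of 7. For oligodendrocyte lineage, endothelial and mural, and fibroblast markers the average gave 4 of 5, 3 of 7 and 2 of 5. With the block it gave 2 of 6, 5 of 7 and 5 of 5. Astrocyte markers were above 0 for 7 of 10 in the average (median 0.12), and for 6 of 10 (median 0.03) with the block. The part of these cells in the values below was not tested. What follows gives the values behind these counts, by the role of each gene.

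**Figure D2:**
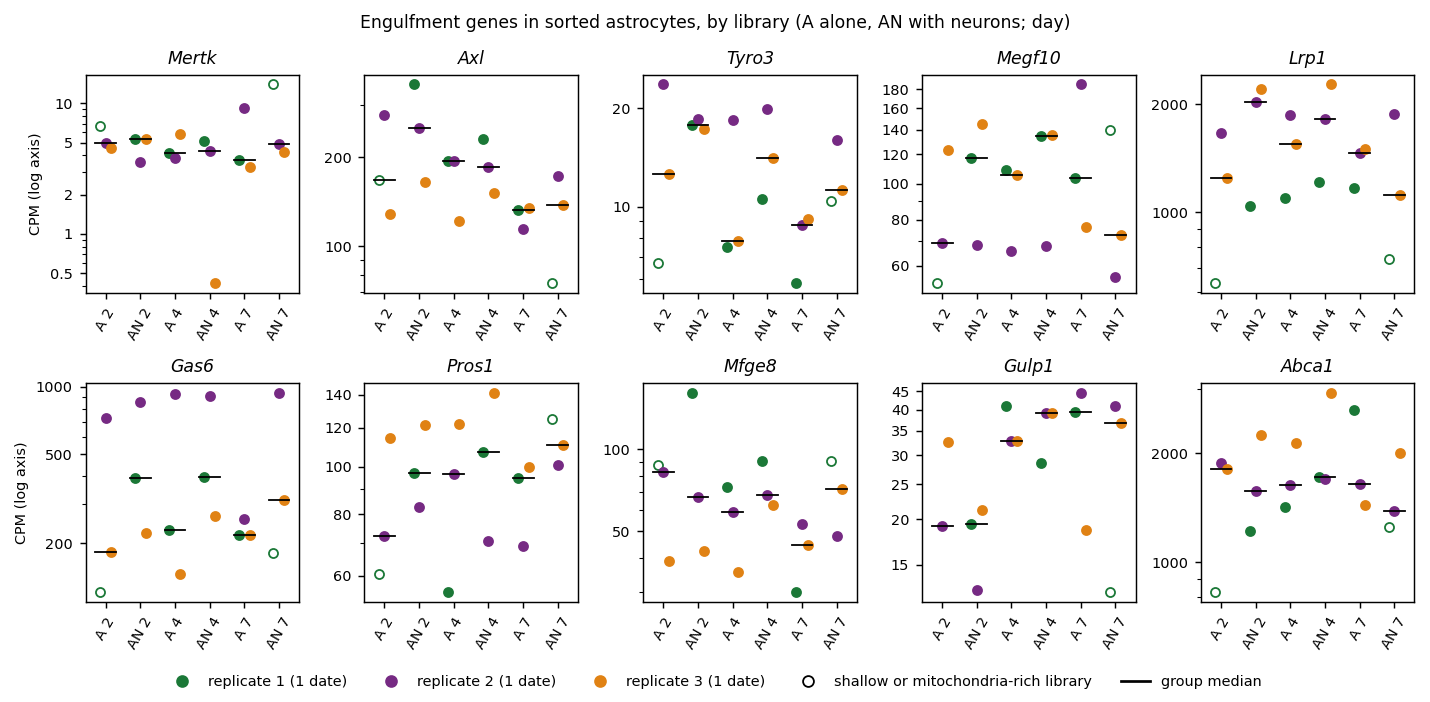
CPM (log axis) of each gene in every library, by group (A, astrocytes alone, AN, with neurons, and the day), with colour for the replicate number, open circles for the 2 libraries that stand apart and a line at the group median. Replicate 2 holds the highest Gas6 values in every group, and Gulp1 in replicate 1 of astrocytes alone at day 2 is at 0 and not drawn.

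Among the TAM receptors, Tyro3 was higher with neurons in 8 of 9 pairs of libraries and Axl in 6 of 9, while Mertk was higher in 5 of 9. Without the pairs that hold the 2 doubtful libraries these counts were 6, 5 and 4 of 7. Tyro3 stood at 6.72, 23.7 and 12.5 CPM in replicates 1, 2 and 3 of astrocytes alone at day 2, and at 17.8, 18.5 and 17.3 CPM in the co-cultures. The first of these values is 1 read, so that its pair, though counted among the 9, cannot be ordered. The same holds for Mertk in that pair of libraries. At day 4 the values were 7.51, 18.4 and 7.84 CPM alone and 10.5, 19.9 and 14.1 CPM with neurons. At day 7 they were 5.81, 8.77 and 9.15 CPM alone and 10.4, 15.98 and 11.3 CPM with neurons. The groups overlapped at days 2 and 4 and did not at day 7, and the share of all genes without overlap was not counted. Higher values in 3 of 3 pairs, as Tyro3 had at days 4 and 7, were found for 10.7% and 14.2% of all genes. The log2 fold change at day 7 was 0.67 (SE 0.48, 95% interval −0.34 to 1.67, edgeR adjusted p = 0.712). In the average of the days it was 0.41 (SE 0.28, adjusted p = 0.982).

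Axl, the receptor that binds Gas6 most tightly, had the highest level of the TAM family. It stood at 168, 278 and 129 CPM in astrocytes alone at day 2 and at 353, 251 and 165 CPM with neurons. The day 4 values were 195, 194 and 122 CPM alone and 230, 186 and 151 CPM with neurons. The day 7 values were 133, 114 and 135 CPM alone and 74.6, 173 and 138 CPM with neurons. Alone and co-cultured groups overlapped at each day, and the lowest of the 18 values belongs to the mitochondria-rich library. Its log2 fold change in the average of the days was 0.19 (SE 0.22, 95% interval −0.26 to 0.64, adjusted p = 0.996). At day 7 the fitted value was 0.02, and 0.24 with 16 libraries, and its sign changed in 15 of 28 alternative settings.

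Mertk, the TAM receptor known to act in synapse removal by astrocytes, was the least abundant of the 10 genes. It stood between 3.27 and 6.72 CPM in 15 of 18 libraries, and the 6.72 CPM is 1 read in the shallow library. The other values were 0.417 CPM in replicate 3 of the day 4 co-culture, 9.20 CPM in astrocytes alone of replicate 2 at day 7 and 13.9 CPM in the mitochondria-rich library. The lowest rests on 7 reads, with an exact Poisson interval of 0.168 to 0.860 CPM that covers counting error only. Its partner alone had 5.82 CPM. There was overlap between the groups at each day, and the log2 fold change in the average of the days was −0.01 (SE 0.45, adjusted p = 1), and −0.25 (SE 0.42) with 16 libraries. At day 4 it was −0.46 (SE 0.76, adjusted p = 1) and 0.06 once replicate 3 of the co-culture was left out. At day 7 it was 0.51 (SE 0.77, adjusted p = 0.905), −0.25 without the mitochondria-rich library and 1.13 when the library of astrocytes alone of replicate 2 was left out.

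Megf10, the C1q-binding receptor, was higher with neurons in 3 of 3 pairs at day 4 and in 1 of 3 at day 7, and in all in 6 of 9 pairs and in 4 of 7 without the doubtful libraries. It stood at 53.8, 69.1 and 123 CPM in astrocytes alone at day 2 and at 117, 68.3 and 145 CPM with neurons. On day 4 its level was 109, 65.8 and 105 CPM alone and 134, 68.0 and 135 CPM with neurons. On day 7 its level was 104, 185 and 76.6 CPM alone and 140, 56.1 and 72.5 CPM with neurons. The groups overlapped at each day. The widest pair was replicate 2 at day 7, where the co-culture had 0.303 times the level of its partner. The fitted log2 fold change at day 7 was −0.45 (SE 0.44, edgeR adjusted p = 0.824) with 18 libraries. With 16 libraries and the block it was −1.0 (SE 0.40, unadjusted p = 0.0240, adjusted p = 1). Leaving only the library alone of replicate 2 at day 7 out of the 18 gave −0.02. The difference between the effects at day 7 and day 2 was −0.81 (SE 0.62, adjusted p = 0.957).

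Lrp1, the endocytic receptor, was higher with neurons in 3 of 3 pairs at day 2, as were 15.2% of all genes, in 2 of 3 at day 4 and in 1 of 3 at day 7. One of the day 2 pairs and one of the day 7 pairs hold a doubtful library, and without them 5 of 7 pairs were higher. It stood at 632, 1660 and 1243 CPM in astrocytes alone at day 2 and at 1040, 2030 and 2203 CPM with neurons. At day 4 the values were 1098, 1871 and 1555 CPM alone and 1211, 1820 and 2273 CPM with neurons. At day 7 they were 1170, 1465 and 1498 CPM alone and 738, 1874 and 1119 CPM with neurons. Alone and co-cultured groups overlapped at each day, and replicate 1 was the lowest library in each of the 6 groups. The log2 fold change at day 2 was 0.57 (SE 0.45, adjusted p = 1), but 0.27 (SE 0.41) with 16 libraries, without the shallow library and its 632 CPM, and 0.45 (SE 0.30) with 16 libraries and the block. In the average of the days it was 0.22 (SE 0.26, adjusted p = 1).

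Of the bridging molecules, Gas6, the ligand of all TAM receptors, had the largest fitted difference in the average of the days and the highest coefficient of variation over the 16 libraries (67.6%). It stood at 121, 724 and 183 CPM in replicates 1, 2 and 3 of astrocytes alone at day 2 and at 393, 859 and 223 CPM with neurons. The day 4 values were 231, 933 and 146 CPM alone and 398, 910 and 266 CPM with neurons. The day 7 values were 218, 256 and 217 CPM alone and 180, 937 and 313 CPM with neurons. Replicate 2 was the highest library in each of the 6 groups, and the groups alone and with neurons overlapped at each day. Within pairs Gas6 was higher with neurons in 7 of 9, and in 6 of 7 without the doubtful libraries. The ratio within a pair ran from 0.827 in replicate 1 at day 7, which holds the mitochondria-rich library, to 3.66 in replicate 2 at day 7. Its log2 fold change in the average of the days was 0.60 (SE 0.44, 95% interval −0.32 to 1.52, edgeR adjusted p = 0.982). With 16 libraries and the block it was 0.58 (SE 0.21, 95% interval 0.13 to 1.02, unadjusted p = 0.0145, adjusted p = 0.986).

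The size of the Gas6 difference at a single day depended on single libraries. For day 2 the log2 fold change was 0.49 (SE 0.76), and it was 0.12 with 16 libraries, −0.20 when the co-culture of replicate 2 was left out and 1.61 when its partner was. For day 4 it was 0.26 (SE 0.76), and −0.40 and 1.43 when the same libraries of that day were left out. For day 7 it was 1.05 (SE 0.76, adjusted p = 0.716), 0.02 when the co-culture of replicate 2 was left out and 1.43 when the mitochondria-rich library was. The day 7 value with 16 libraries and the block was 0.93 (SE 0.38, unadjusted p = 0.0279, adjusted p = 1).

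Pros1 (protein S), the other TAM ligand, was higher with neurons in 8 of 9 pairs, and in 6 of 7 without the doubtful libraries. It stood at 60.5, 72.3 and 114 CPM in astrocytes alone at day 2 and at 97.3, 82.7 and 121 CPM with neurons. On day 4 its level was 55.6, 96.6 and 122 CPM alone and 107, 70.6 and 141 CPM with neurons. On day 7 its level was 94.9, 69.0 and 100 CPM alone and 125, 101 and 111 CPM with neurons. There was overlap between the groups at days 2 and 4 and not at day 7, where the highest value alone (99.98 CPM) was next to the lowest with neurons (100.6 CPM). For Pros1 too, no share of all genes without overlap was counted. The fitted log2 fold change in the average of the days was 0.27 (SE 0.20, 95% interval −0.15 to 0.68, adjusted p = 0.982), and 0.17 (SE 0.20) with 16 libraries.

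Mfge8, the bridge to integrins, was higher with neurons in 7 of 9 pairs, and in 5 of 7 without the doubtful libraries. It stood at 87.4, 82.4 and 38.8 CPM in astrocytes alone at day 2 and at 161, 66.7 and 42.4 CPM with neurons. At day 4 the values were 72.8, 59.0 and 35.5 CPM alone and 90.9, 68.0 and 62.5 CPM with neurons. At day 7 they were 29.9, 53.2 and 44.6 CPM alone and 90.8, 48.2 and 71.5 CPM with neurons. The groups overlapped at each day. The log2 fold change in the average of the days was 0.52 (SE 0.26, unadjusted p = 0.0640, adjusted p = 0.982), the smallest unadjusted p of the 10 genes in that comparison. For day 2 it was 0.43 (SE 0.47), and −0.31 when the co-culture of replicate 1 was left out.

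Gulp1, the adaptor downstream of Megf10, was higher with neurons in 3 of 7 pairs without the doubtful libraries, and its fitted average was −0.15 (SE 0.30, adjusted p = 1). It stood at 0, 19.2 and 32.5 CPM in astrocytes alone at day 2 and at 19.5, 12.8 and 21.3 CPM with neurons. The 0 comes from the shallow library, where 3 reads, taken here as the limit that a count of 0 allows, amount to 20.2 CPM, so that its pair cannot be ordered. The upper bound of the exact Poisson interval of this count is 24.8 CPM. The day 4 values were 41.0, 32.9 and 32.8 CPM alone and 28.5, 39.2 and 39.2 CPM with neurons. The day 7 values were 39.4, 44.4 and 18.7 CPM alone and 12.6, 41.0 and 36.7 CPM with neurons. Alone and co-cultured groups overlapped at each day.

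Abca1, which moves cholesterol and phospholipid across the membrane, was higher with neurons in 6 of 9 pairs, with 3 of 3 at day 4 and 1 of 3 at day 7, and in 5 of 7 without the doubtful libraries. Its values ran from 827 to 1876 CPM in astrocytes alone at day 2 and from 1216 to 2243 CPM with neurons. At day 4 they ran from 1419 to 2129 CPM alone and from 1694 to 2922 CPM with neurons, and at day 7 from 1440 to 2632 CPM alone and from 1247 to 2006 CPM with neurons. There was overlap between the groups at each day. Its log2 fold change in the average of the days was 0.05 (SE 0.24, 95% interval −0.46 to 0.55, adjusted p = 1), and −0.02 (SE 0.22) with 16 libraries.

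**Figure D3:**
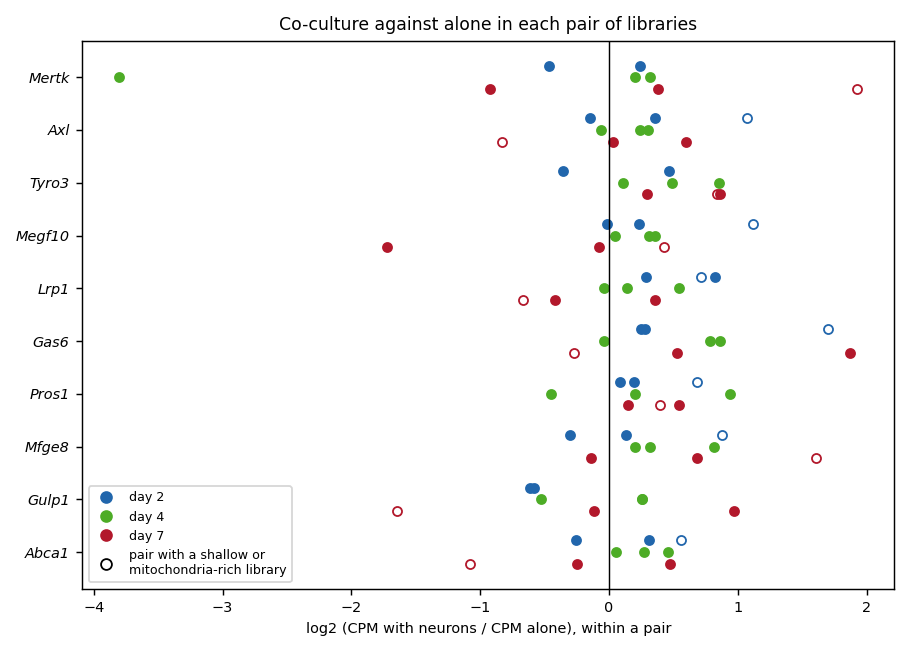
The log2 ratio of CPM with neurons to CPM alone within each pair of libraries of one replicate number and day, by gene, with colour for the day and open circles for pairs that hold a doubtful library (pairs with under 3 reads in a library are left out). Most points of Tyro3, Pros1 and Gas6 lie above 0 and each gene has points on both sides.

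The effect of co-culture was not shown to differ between days for any of the 10 genes. For the difference between day 7 and day 2, edgeR called 0 of 10 genes and 0% of 16539, with 0 of 10 at an unadjusted p under 0.05, against 5.47% of all genes. Fitted differences ran from −0.81 for Megf10 to 0.58 for Mertk, with adjusted p of 0.957 to 1. With 16 libraries they ran from −1.15 for Megf10 to 1.28 for Gas6, with an adjusted p of 1 for each of the 10 genes, and the value for Mertk was −0.27.

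Over time, Axl and Tyro3 were lower at day 7 than at day 2 in both kinds of culture, and Gulp1 was higher, but none of these differences passed the test. Axl in co-cultured astrocytes went from a mean of 256 ± 94.3 CPM (SD, n = 3) at day 2 to 129 ± 50.1 CPM (SD, n = 3) at day 7. The fitted log2 fold change was −0.99 (SE 0.38, unadjusted p = 0.0162, adjusted p = 0.300), and with 16 libraries and the block −0.54 (SE 0.30, adjusted p = 0.763). In astrocytes alone it was −0.60 (SE 0.38, adjusted p = 1). Tyro3 in astrocytes alone went from 14.3 ± 8.61 CPM (SD, n = 3) to 7.91 ± 1.83 CPM (SD, n = 3), with a log2 fold change of −1.02 (SE 0.50, unadjusted p = 0.0552, adjusted p = 1). In the co-cultures the Tyro3 value was −0.51 (SE 0.48, adjusted p = 0.696). Gulp1 in the co-cultures went from 17.8 ± 4.45 CPM (SD, n = 3) to 30.1 ± 15.3 CPM (SD, n = 3), with a log2 fold change of 0.76 (SE 0.52, adjusted p = 0.549), and 1.13 (SE 0.34) with 16 libraries. With 16 libraries and the block it was 1.17 (SE 0.36, unadjusted p = 0.00511, adjusted p = 0.638). Without the mitochondria-rich library the day 7 mean of Gulp1 in the co-cultures was 38.9 ± 2.99 CPM (SD, n = 2). In all, edgeR called 0 of 10 genes in either kind of culture, as it did 0% of all genes. At an unadjusted p under 0.05 there were 0 of 10 alone and 1 of 10 with neurons, against 1.11% and 13.2% of all genes. With 16 libraries and the block there were 2 of 10 alone and 1 of 10 with neurons, and none was called. The share of all genes under 0.05 in that model was not counted for these comparisons.

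Gas6 differed between the dates of the cultures. In the 16 libraries, a test of the 3 dates in the model with the block, added after the data had been seen, called Gas6 (edgeR adjusted p = 0.000873) and none of the other 9 genes, against 8.93% of 17092 genes. With all 18 libraries it called Gas6 and Lrp1 (adjusted p = 0.00138 and 0.0391), against 5.76% of 16539 genes. Gas6 ranged from 218 to 398 CPM in the 4 libraries of the date of replicate 1, from 256 to 937 CPM in the 6 of replicate 2 and from 146 to 313 CPM in the 6 of replicate 3. Of the 6 libraries of replicate 2, 5 stood at 724 to 937 CPM, above every other library, and the remaining one, astrocytes alone at day 7, stood at 256 CPM. Gas6 passed this test whichever of the 16 libraries was left out, with adjusted p from 1.08e-05 to 0.00505. These fits share most of their libraries and are not independent of each other. Lrp1 was lower on the date of replicate 1 (1040 to 1211 CPM) than on that of replicate 2 (1465 to 2030 CPM), with no overlap, and stood at an edgeR adjusted p of 0.0792. How many of all genes lacked overlap between these dates was not counted. When astrocytes alone of replicate 2 at day 7 were left out, Lrp1 (adjusted p = 0.0394) and Megf10 (adjusted p = 0.00623) passed too. Leaving out replicate 3 of that group instead let Axl pass (adjusted p = 0.0206).

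Markers of some cell types differed between the dates as well. Summed microglia and macrophage markers were 6.28 to 65.1 CPM on the date of replicate 1, 110 to 395 CPM on that of replicate 2 and 5.21 to 13.3 CPM on that of replicate 3, with 13 of 13 genes read on each date, and 8 of 13 differed between the dates. These 8 were Csf1r, Ptprc, Itgam, Tyrobp, Laptm5, Lyz2, Fcer1g and Cd53, and each had its highest median on the date of replicate 2, from 1.29 CPM for Tyrobp to 127 CPM for Lyz2. Aif1, Cx3cr1, P2ry12, Tmem119 and Cd68 were not called. On the date of replicate 2 their medians were 0.730, 1.00, 0.250, 0.0802 and 5.37 CPM, with all but Cd68 at 0 in some of its libraries. Aif1 and Cd68 had their highest median on that date as well. Cx3cr1 and Tmem119 had theirs on the date of replicate 1 (1.72 and 0.371 CPM), and P2ry12 on that of replicate 3 (0.362 CPM). The 1 library of replicate 2 with low Gas6 had a summed level of 207 CPM, above that of 3 of the 5 libraries with high Gas6. Summed astrocyte markers were 914 to 1967, 1856 to 2436 and 4009 to 5618 CPM on the 3 dates, and 8 of 10 differed between them. Of the other markers tested, 3 of 5 of fibroblasts, 2 of 8 of neurons, 0 of 6 of the oligodendrocyte lineage and 0 of 7 of endothelial and mural cells were called. Of all genes, 8.93% were. The part of these cells in the Gas6 difference was not tested. Within the date of replicate 2, Megf10 was low where Gas6 was high. In the 5 libraries with high Gas6, Megf10 stood at 56.1 to 69.1 CPM, and in the library of that date with low Gas6 it stood at 185 CPM, the highest of the 18.

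**Figure D4:**
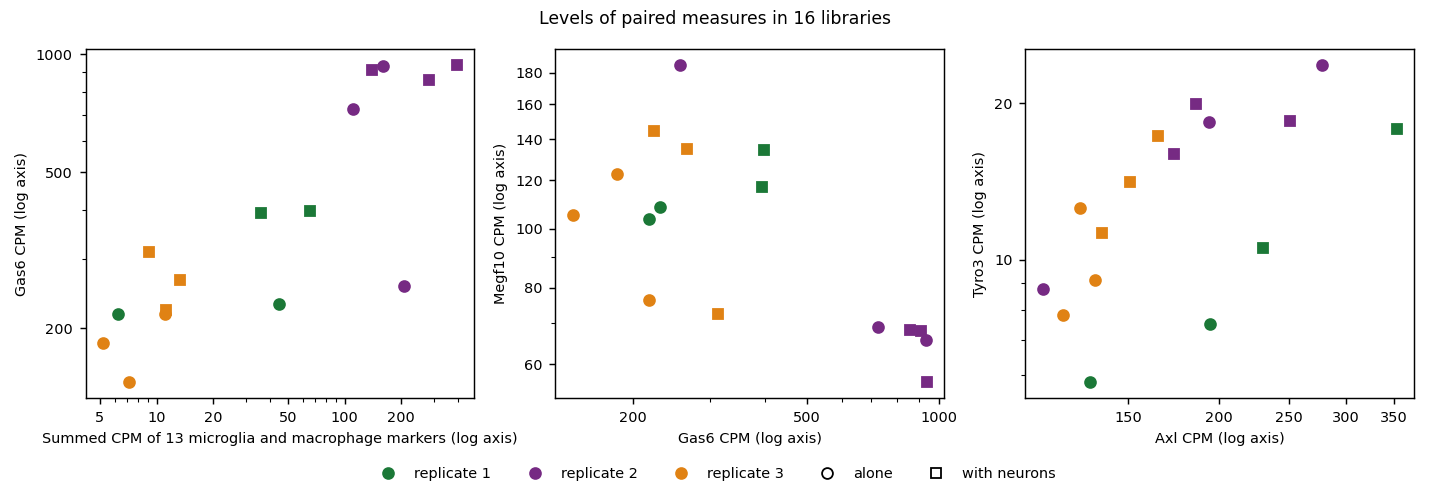
Each point is 1 of 16 libraries on log axes in CPM, with colour for the replicate number and circles for astrocytes alone and squares for co-cultures: Gas6 against summed microglia and macrophage markers, Megf10 against Gas6, and Tyro3 against Axl. The 5 libraries at 724 to 937 CPM of Gas6 are all of replicate 2, and the remaining library of that number has 256 CPM of Gas6 and 207 CPM of the markers.

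Across the 16 libraries, which share dates and groups and so are not independent, several of the 10 genes varied together. Tyro3 and Gas6 correlated at r = 0.734 on log2 CPM and at r = 0.730 once the mean of each date was removed. Axl and Tyro3 correlated at 0.624, and at 0.904 within dates. Axl and Mfge8 correlated at 0.817 and at 0.770 within dates. Megf10 and Gas6 correlated at −0.692 (Spearman −0.600, and −0.666 without the 2 libraries farthest from the median of Megf10), and at −0.654 within dates. The value within dates rests on 1 library, astrocytes alone of replicate 2 at day 7, without which it was −0.046. For the 3 pairs of genes named before, leaving out any 1 of the 16 libraries gave values within dates of 0.583 or more. Gas6 and Pros1, both ligands of the TAM receptors, correlated at −0.324, and at 0.440 within dates, so that their relation depended on the dates. These are descriptions of 45 pairs of genes.

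For each gene the closest in pattern among 8930 genes (mean log2 CPM at least 3) was found over the same 16 libraries. It was Dbn1 for Axl (r = 0.938), Ldhb for Tyro3 (0.897), Prkd1 for Gas6 (0.920), Slc4a4 for Megf10 (0.905) and Sfpq for Lrp1 (0.907). It was Soat1 for Pros1 (0.838), Rec8 for Mfge8 (0.927), Abi1 for Gulp1 (0.845) and Nbas for Abca1 (0.867). Without the 2 libraries farthest from the median of the gene, these correlations were 0.727 to 0.913. For Mertk it was Sestd1, at r = 0.943 but a Spearman correlation of 0.432, and it was 0.234 without the 2 libraries with its lowest and highest values, so that this pattern rests on those libraries.

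The wider pathway gave the same count of calls. Of other uptake receptors 10 of 13 could be tested, of other opsonins and eat-me signals 9 of 9, of don't-eat-me signals 3 of 3, of engulfment signalling genes 12 of 12, of lysosomal genes 8 of 8, of genes that modify the TAM receptors or their ligands 7 of 7, of partners of Lrp1 9 of 9 and of sterol efflux genes 7 of 7. In the average of the days edgeR called 0 in each list in either direction, as it called 0% of all genes. Of the opsonins, 9 of 9 had a fitted value above 0, with a median log2 fold change of 0.47, and of the lysosomal genes 8 of 8, with a median of 0.42, beside 0.03 over all genes tested. The don't-eat-me signals had 3 of 3 above 0 and the highest median of these lists, 0.49. Medians of the remaining lists were 0.07 to 0.21. With 16 libraries and the block the opsonins had 8 of 9 with a median of 0.39 and the lysosomal genes 8 of 8 with a median of 0.27. The don't-eat-me signals had 3 of 3 with a median of 0.28, beside −0.05 over all genes. The opsonins include C1qa, C1qb and C1qc, with fitted values of 1.57, 1.40 and 2.04, which microglia and macrophages also express, and the markers of those cells had a median of 0.99 in the same comparison. With 18 libraries the membrane protein of lysosomes Lamp1 had the only unadjusted edgeR p under 0.05 of the opsonins and lysosomal genes in the average. Its log2 fold change was 0.46 (SE 0.18, unadjusted p = 0.0197, adjusted p = 0.982). With 16 libraries and the block, 2 of 9 opsonins and 2 of 8 lysosomal genes were under 0.05 in the average, against 3.98% of all genes, and none was called. Levels of the partners of the genes described here differed widely. Integrin alpha v (Itgav), which binds Mfge8, had a median of 387 CPM over the 16 libraries, and Apoe, a cargo of Lrp1, 359 CPM. Complement C3 stood at 549.5 to 10090 CPM, while the C1q genes C1qa, C1qb and C1qc, whose product binds Megf10, had medians of 0.657, 1.96 and 0.321 CPM and reads in 12, 13 and 10 of 18 libraries.

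Between the dates, 4 of 11 other uptake receptors, 6 of 9 opsonins, 2 of 3 don't-eat-me signals, 1 of 12 engulfment signalling genes and 3 of 9 partners of Lrp1 were called, against 8.93% of all genes. Those with the smallest p were the scavenger receptors Cd36 (adjusted p = 9.17e-05) and Stab1 (0.00177), the receptor Adgrb1 (0.00272), and the complement genes C1qb (0.000244), C1qc (0.000355) and C1qa (0.00331). Stab1, Cd36 and the C1q genes are also expressed by microglia and macrophages, and 8 of 13 markers of those cells differed between the same dates. None of the 8 lysosomal, 7 TAM-modifying and 7 sterol efflux genes was called between dates in this test.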

How the data were processed

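RNA was measured by sequencing in 18 libraries. Per the labels' protocols, total RNA was freed of ribosomal RNA with the RiboGone kit, and SMARTer kits for low input gave the libraries. The authors deposited read counts per Entrez gene, made with Subread and featureCounts on the build mm9 per the submitters' processing notes. The sources used here state neither their versions nor whether strand was used, so overlapping or antisense genes may share reads. Columns were matched to samples by name, and 17 columns of other values were not used. Symbols came from RefSeq and exon lengths from GENCODE on GRCm38.

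The 10 genes, the gene lists and the doubtful libraries were chosen with earlier results of these data known. The rule names the 10 genes whatever their result, called genes of the lists (at most 4 per list and contrast by smallest p) and the gene closest in pattern to each. Alongside these, uncalled genes of the lists were named after their values were seen. They show levels, fitted values (C1qa, C1qb and C1qc) or a small unadjusted p (Lamp1). Counts were fitted in R 4.3.3 with edgeR 4.0.16 (quasi-likelihood F test): 6 group means over 18 libraries, TMM scaling, filterByExpr and Benjamini-Hochberg adjusted p under 0.05 over 16539 genes. Levels are CPM with TMM, and correlations use log2 CPM with a prior count of 2. Alternatives were DESeq2 1.42.0, median-ratio scaling, no filter, only the groups compared, the replicate block, 16 libraries, and leaving out each library or replicate number. A test between dates, 16 libraries with the block over 17092 genes, was added after seeing the data, as was leaving out each library from correlations within dates.

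Replicate numbers pair the samples, since each stands for a single date in the labels. The main fit has no replicate block, so its standard errors and p-values do not use this pairing and include differences between dates. After subtracting group means, libraries correlated at 0.108 to 0.469 within a number and day and at −0.346 to −0.0102 between numbers on the same day. Deviations of 3 libraries from their group mean sum to 0, so the negative values are no separate evidence of pairing. The 2 doubtful libraries had TMM factors of 0.0459 and 0.665. The procedure was tested on simulated data.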

Additional observations from a re-analysis of the deposited data

How the results depend on the processing

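None of the 10 genes was called in any co-culture comparison or any of the 1110 combinations of gene, comparison and alternative. The sign of the fitted value changed in 100 of them, for 22 of 40 values of a gene in a comparison, and the cause was not tested. In the average of the days the sign held in every alternative for Gas6, Tyro3, Mfge8, Pros1, Axl and Lrp1, and changed in 10 of 27 for Megf10 and Abca1, in 7 for Mertk and in 1 for Gulp1.

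Over all genes, against 0 called in each comparison, 16 libraries with the replicate block called 16 genes at day 2, 18 at day 7, 17 for day 7 against day 2 alone, 17 for the same with neurons and 23 for the difference of the co-culture effect between day 7 and day 2. The replicate block on 18 libraries called 1 gene at day 7 and 1 for day 7 against day 2 with neurons, and changed no call among the 10 genes. DESeq2 called 17 at day 2, 13 at day 7, 5 for day 7 against day 2 alone, 229 with neurons and 4 for the difference of effects. Leaving out a replicate gave 0 to 1 genes for that difference. Between the dates, 953 genes were called with 18 libraries against 1526 with 16, and leaving out 1 library gave 895 to 1977. The causes were not tested. Depth limits Tyro3 and Mertk in the shallow library, with 1 read each.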
